A study of Mus musculus with 31 samples.

Results

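Culture day 21 was compared with culture day 12 in mouse embryonic stem cells differentiated toward cerebral cortex. The comparison used 8 of the 31 samples of the series, chosen by their labels: 4 RNA sequencing libraries of day 12 and 4 of day 21, with 2 of each cross at each day. The cells were F1 hybrids of the strains C57BL/6J, called B6 here, and JF1. BJ1 cells had a B6 mother and a JF1 father, and JB6 cells the reverse. All 8 libraries were labelled male, and their B6 parent was transgenic for Oct4-GFP, a reporter of pluripotent cells. The stem cells, derived from blastocysts, had been kept in medium with LIF, BMP4 and a GSK3β inhibitor and were plated on matrigel. At both days the cells had been grown in defined default medium (DDM) with B27 without vitamin A and had received cyclopamine, an inhibitor of Hedgehog signalling, from day 2 to day 10. The protocol describes a split of the cells at day 12 onto poly-L-lysine and laminin for the counting of stained cells, and does not say whether the sequenced day 21 cells were split. The labels give 1 name per cross, so the cross and the cell line cannot be told apart in culture. They do not say that replicates were separate cultures, so p-values measure the spread between libraries, which may be technical. For the tests of alleles this spread was estimated over the 25 hybrid libraries of the series and not over these 8 alone.

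In this kind of culture, stem cells lose pluripotency, form proliferating neural progenitors and then give rise to neurons and later to astrocytes. Progenitors divide under Notch signalling, and neurons that leave the cell cycle build axons, synapses and ion channels. Imprinted genes are expressed mainly from the maternal or mainly from the paternal chromosome because of DNA methylation marks laid down in the germ line, and for some of them the preferred parent depends on the tissue.

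Each value is a count of read bases, that is, of sequenced bases at a position where B6 and JF1 differ, credited to 1 of the 2 parental alleles. Levels are the sum of both alleles in CPM, read bases scaled to the effective library size with edgeR. They can be compared between libraries but not between genes, since genes differ in the number of strain differences. The libraries held 5266834 to 8618253 read bases. Replicates of a cross and day differed beyond counting noise in all 4 pairs. The first principal component of log2 levels held 72.4% of the variance and separated the days, and the second held 9.16%. The mitochondrial share was 10.8% to 15.1% at day 12 and 10.6% to 20.7% at day 21, the highest value being that of JB6 replicate 2. The paternal allele held 1.93% to 3.43% of X-linked read bases at day 12 and 1.13% to 2.79% at day 21. Bulk RNA cannot tell fewer cells of a type from less RNA per cell.

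Of 11255 genes tested with the cross as a covariate, 2838 (25.2%) rose and 2537 (22.5%) fell from day 12 to day 21 (edgeR quasi-likelihood test, Benjamini-Hochberg adjusted p of 0.05). The 4 day 21 libraries all lay above the 4 day 12 libraries for 22.3% of genes and all below for 19.8%. The median log2 change over all genes was −0.02, at least 4-fold rises were called for 657 genes, and at least 4-fold falls for 99. Gene lists are described below by their counts against these background shares. They share some genes with each other, and only members averaging 20 or more read bases a library could be called.

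The labels call these cultures cortical, and several defining forebrain markers were near 0 at both days. Emx1, a dorsal telencephalic factor, had 26 read bases over the 4 day 12 libraries and 2 over the 4 day 21 libraries, and Neurod6, a marker of cortical projection neurons, had 1 and 20. Tbr1, which marks early-born deep-layer neurons, held 0.57 to 2.41 CPM, here of the unscaled library total, at day 12 and 1.86 to 2.95 at day 21. The 6 libraries of the series labelled in vivo E13.5 held 123 to 213 CPM of it. Eomes, of intermediate progenitors, held 0.928 to 5.37 and 1.97 to 2.55 CPM, against 156 to 250. Pax6, of radial glia, held 3.4 to 10.3 and 3.37 to 8.79 CPM, against 74.7 to 94.3. Sox2, which like Nes marks neural progenitors of any region, held 45.3 to 76 CPM at day 12 and 45.1 to 76.5 at day 21. Nes held 63.4 to 108 CPM at day 12 and 48 to 76.3 at day 21. Neither passed the test between days (log2 changes of −0.14 and −0.42), and neither was set against the E13.5 libraries.

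Genes of neurons rose together. Of 31 listed genes of the neuronal cytoskeleton and early neurons that the tables hold, 29 were tested, 26 rose and 2 fell, with a median log2 change of 1.72. Mapt, which encodes the microtubule protein tau, held 69.7 and 106 CPM in BJ1 and 39.7 and 54.8 in JB6 at day 12, and 749 and 940.4 in BJ1 and 1015 and 939 in JB6 at day 21. All 4 day 21 libraries lay far above the day 12 libraries (log2 change 3.81 ± 0.26 SE, edgeR adjusted p = 4.77e-07). In the same libraries the summed level of the epithelial list went from 3698 to 5799 CPM at day 12 to 6803 to 11112 at day 21, and its part in the changes of neural genes was not tested. L1cam, an axonal adhesion molecule, rose from 2.76 to 7.92 CPM at day 12 to 30.3 to 55.9 at day 21 (log2 change 2.96 ± 0.30 SE, edgeR adjusted p = 6.2e-06). The RNA-binding protein gene Celf4 (2.76 on the log2 scale) and the intermediate filament gene Ina (2.30) also rose. Dcx, the doublecortin gene of migrating neurons, rose from 17.5 to 65.2 CPM at day 12 to 78.5 to 134 at day 21 (log2 change 1.72 ± 0.30 SE, edgeR adjusted p = 0.000808). Tubb3, the neuronal tubulin, rose by less (log2 change 1.21 ± 0.37 SE, edgeR adjusted p = 0.0229), and its day 12 BJ1 libraries, at 224 and 271 CPM, overlapped the day 21 range of 259 to 445. The 2 that fell were Prph, the peripherin gene of peripheral neurons (−0.97), and Nhlh2, a transcription factor of newly formed neurons (−1.43), both on the log2 scale. Without day 21 BJ1 replicate 2 the falls were 1.

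Presynaptic genes rose almost without exception. In the presynaptic list 36 members are in the tables and 32 were tested, of which 31 rose and none fell, with a median log2 change of 2.27. Syt1, the calcium sensor of vesicle release, held 1.4 and 2.21 CPM in BJ1 and 0.614 and 1.94 in JB6 at day 12, and 17.3 and 18 in BJ1 and 25.5 and 18.1 in JB6 at day 21. Its day 21 values did not overlap its day 12 values, and the rise passed the test (log2 change 3.66 ± 0.33 SE, edgeR adjusted p = 1.72e-06). Slc17a8, the vesicular glutamate transporter VGLUT3, rose from 0.46 to 2.39 CPM at day 12 to 9.22 to 40.3 at day 21 (log2 change 4.22 ± 0.57 SE, edgeR adjusted p = 0.000134), with the highest value, 40.3, in JB6 replicate 1. Over the day 12 and day 21 libraries Syt1 had 39 and 532 read bases and Slc17a8 had 25 and 549. Both entered the test through day 21, so the direction of their calls was nearly fixed. Rab3c and Syn3, a vesicle GTPase and a synapsin, rose by 3.75 and 3.48 on the log2 scale. Snap25, a core fusion protein, rose from 2.07 to 3.13 CPM at day 12 to 12.1 to 18 at day 21 (2.56). The 1 member that did not pass was Rims2, an active zone scaffold, at 3.22 to 7.37 CPM at day 12 and 4.76 to 7.08 at day 21.

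Receptors and channels followed the same direction. Of 15 glutamate, GABA and glycine receptor genes tested among 36 in the tables, 12 rose and none fell. Gabbr2, Gabra5 and Grin1 were near 0 at day 12 and entered the test only through day 21, so the direction of their call was nearly fixed. Gabbr2, a subunit of the metabotropic GABA receptor, had 4 read bases over the day 12 libraries and 226 over the day 21 libraries, at 5.48 to 10.1 CPM (log2 change 5.52 ± 0.52 SE, edgeR adjusted p = 2.48e-06). Gabra5 and Gabrb2, subunits of the ionotropic GABA receptor, rose by 4.77 and 2.93 on the log2 scale, and Grin1, the obligatory NMDA receptor subunit, rose from 0.243 to 1.47 CPM at day 12 to 5.82 to 10.1 at day 21 (3.27). Among voltage-gated channels 19 of 25 tested rose and none fell. The sodium channel Scn2a1 rose by 3.15 and the potassium channel subunit Kcnip1 by 2.81. Scn2a1, with 17 read bases at day 12 and 174 at day 21, entered the test through day 21. Postsynaptic scaffold and signalling genes were fewer, with 9 of 15 tested higher and none lower. They included the adhesion protein Nlgn3 (3.56), the kinase subunit Camk2b (3.16) and the scaffolds Shank1 (2.82) and Dlg2 (2.63), whereas Dlg4, which encodes PSD-95, held 112 to 161 CPM at day 12 and 129.7 to 138 at day 21 and did not pass. Nlgn3, Shank1 and Dlg2 had 15, 36 and 39 read bases at day 12 and 185, 279 and 249 at day 21. They too entered the test through day 21.

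**Figure D1:**
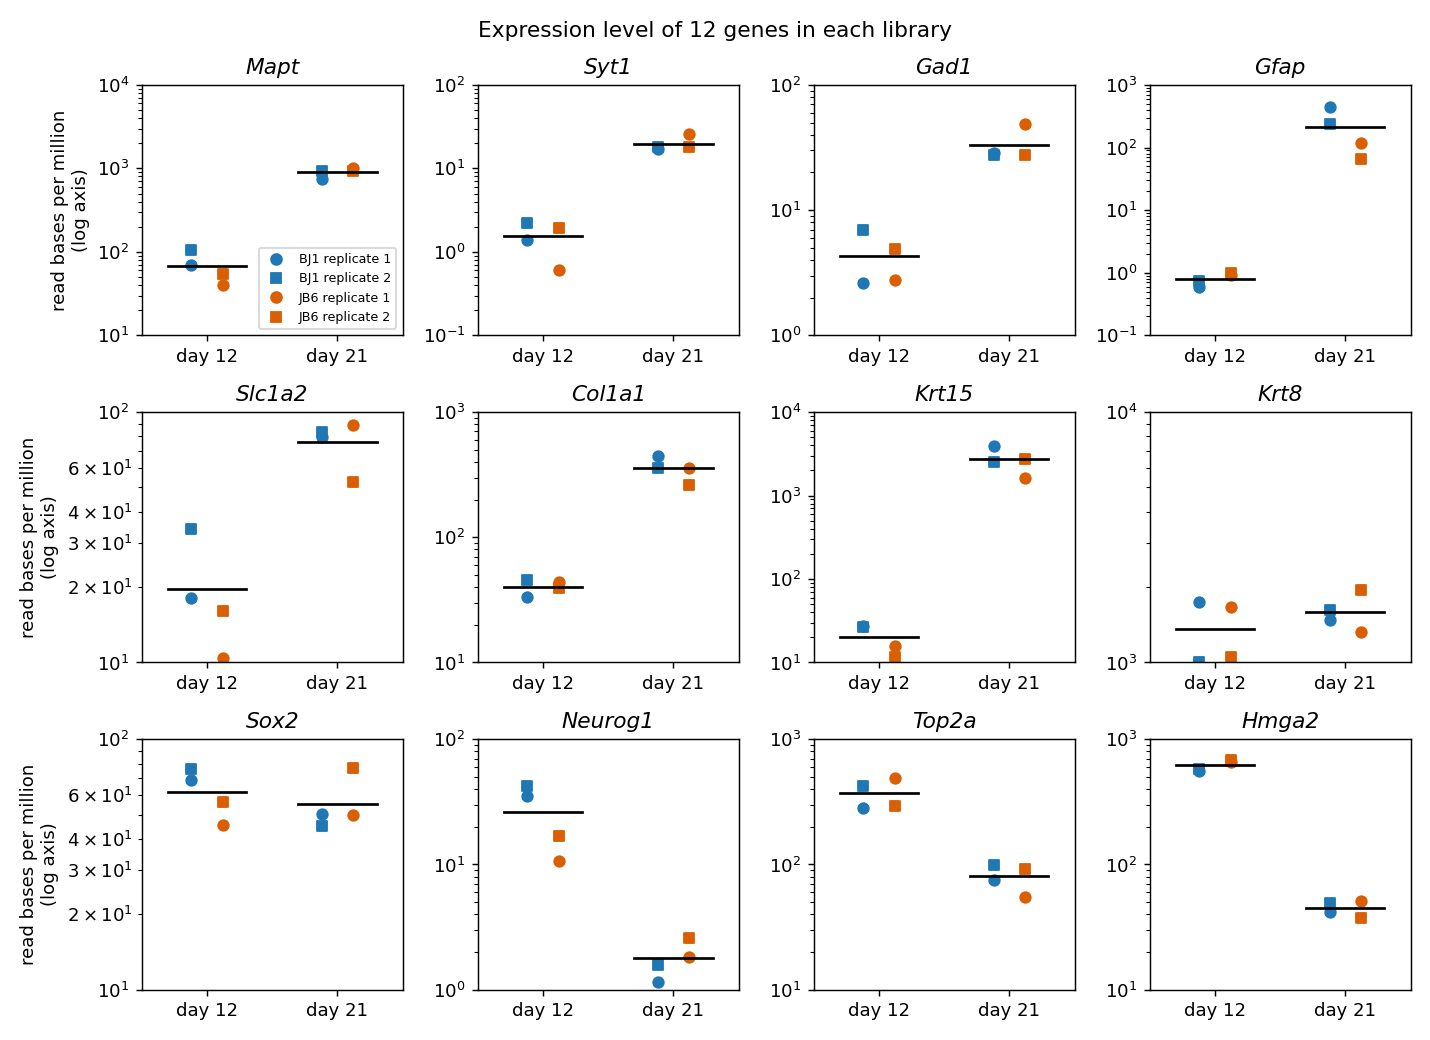
Levels of 12 genes in CPM of read bases (log axis) at day 12 and day 21, with 1 point per library, coloured by cross and shaped by replicate, and a bar at the mean of 4 libraries. Mapt, Syt1, Gad1, Gfap, Slc1a2, Col1a1 and Krt15 lay higher at day 21 in all 4 libraries, Neurog1, Top2a and Hmga2 lower in all 4, and Krt8 and Sox2 overlapped between days.

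Genes of GABA synthesis and vesicular transport rose, while the main transporter gene of cortical excitatory neurons fell. Gad1, the main enzyme of GABA synthesis, held 2.6 and 7 CPM in BJ1 and 2.76 and 4.86 in JB6 at day 12, and 28.5 and 27.8 in BJ1 and 48.9 and 27.4 in JB6 at day 21. Every day 21 library exceeded every day 12 library (log2 change 2.93 ± 0.32 SE, edgeR adjusted p = 1.48e-05). Gad2 rose from 1.84 to 10.9 CPM at day 12 to 18 to 33.5 at day 21 (1.97 on the log2 scale), and the vesicular GABA transporter Slc32a1 by 1.21 with overlapping days. Of the 13 tested of 29 GABAergic and ventral forebrain genes in the tables, 4 rose and 4 fell. The falling members were the transcription factors Isl1 (−2.20), Ebf1 (−0.86) and Meis2 (−0.75) and the neuropeptide gene Sst. Dlx2 and Dlx5, which specify ventral forebrain neurons, had 79 and 2 read bases over the day 12 libraries and 71 and 10 over the day 21 libraries, too few to be tested. Slc17a7, the VGLUT1 transporter of cortical excitatory neurons, held 13 and 12.9 CPM in BJ1 and 4.76 and 5.35 in JB6 at day 12, and 3.31 and 2.23 in BJ1 and 1.81 and 2.4 in JB6 at day 21. It fell by 1.78 on the log2 scale (SE 0.31, edgeR adjusted p = 0.000385), with all day 21 libraries below all day 12 libraries. Slc17a6, the VGLUT2 transporter found in many subcortical neurons, rose from 0.767 to 7.92 CPM at day 12 to 9.08 to 15.7 at day 21 (1.89).

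The cortical projection neuron list moved both ways, with 8 of 20 tested genes higher and 5 lower, and its summed level was 318 to 406 CPM at day 12 and 369.7 to 378 at day 21. Lhx9, a LIM homeobox factor, rose by 3.22, Lmo3 by 2.32 and Nfe2l3 by 1.96. Bcl11b, which encodes the deep-layer factor CTIP2, rose from 2.67 to 3.59 CPM at day 12 to 7.88 to 8.76 at day 21 (log2 change 1.48 ± 0.27 SE, edgeR adjusted p = 0.000476). Etv1 (−0.91), Crym (−0.73) and Foxp1 (−0.50) fell with Slc17a7, and so did Pou3f2 (−0.87). The fall count was 3 in 4 of the alternatives, namely the fit of all 25 hybrid libraries and the fits without day 12 BJ1 replicate 2, day 21 BJ1 replicate 1 or day 21 BJ1 replicate 2. In the Cajal-Retzius and cortical hem list, Reln, the glycoprotein of Cajal-Retzius cells, rose from 4.45 to 12.6 CPM at day 12 to 18.1 to 58.9 at day 21 (log2 change 2.30 ± 0.26 SE, edgeR adjusted p = 1.07e-05), and Trp73 rose by 1.71 with overlapping days. Ebf2 (−1.09), Wnt8b (−0.94) and Rspo3 (−1.13) fell. The count of 2 rises among 12 tested genes became 4 without day 12 BJ1 replicate 2, without day 21 BJ1 replicate 1 and with a replicate block of exchanged numbers.

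Genes of neurogenic progenitors fell. In the list of neurogenic intermediate progenitors 7 of 12 tested genes fell and 1, Slc17a6, rose, with a median log2 change of −1.05. Neurog1, a proneural factor, held 34.9 and 42.5 CPM in BJ1 and 10.7 and 16.8 in JB6 at day 12, and 1.15 and 1.57 in BJ1 and 1.81 and 2.57 in JB6 at day 21. The days did not overlap, the BJ1 libraries were the higher pair at day 12, and Neurog1 fell by 3.75 on the log2 scale (SE 0.40, edgeR adjusted p = 1.44e-05). Dll3 and Dll1, ligands of the Notch family, fell from 51.5 to 158 CPM at day 12 to 18.2 to 31.8 at day 21 and from 19.2 to 29.1 CPM at day 12 to 8.36 to 12.1 at day 21. The fringe glycosyltransferase Mfng (−2.10) and the corepressor Rcor2 (−1.51) fell as well. Neurog2, the dorsal proneural factor, lay at 8.75 to 23.2 CPM at day 12 and 3.46 to 11 at day 21 and did not pass (log2 change −1.06 ± 0.41 SE, edgeR adjusted p = 0.0503).

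In the dorsal forebrain progenitor list 5 of 22 tested genes rose and 4 fell, near the shares of all genes tested, 25.2% and 22.5%. Hes5, a direct Notch target of radial glia, fell from 29.3 to 144 CPM at day 12 to 11 to 19.8 at day 21 (log2 change −2.03 ± 0.32 SE, edgeR adjusted p = 0.000368), and Tead2 and Gli3 fell by 1.58 and 1.19 on the log2 scale. The risers were Hopx (2.50), Ptprz1 (2.30), Slc1a3 (1.38) and Tnc (0.95), which are known from outer radial glia or astrocytes, and Nr2f2 (0.47). Among 7 tested genes of midbrain, hindbrain and spinal cord, of 37 in the tables, 4 fell and 1 rose. Wnt1, the midbrain organizer ligand, fell from 16.3 to 64.3 CPM at day 12 to 1.37 to 6.03 at day 21 (log2 change −3.66 ± 0.24 SE, edgeR adjusted p = 1.49e-07), with the BJ1 libraries at 64.3 and 56.2 and the JB6 libraries at 16.3 and 19.7 at day 12. Th, tyrosine hydroxylase of dopamine neurons, fell by 1.94 and Hoxb2 by 1.04, while the kidney and midbrain factor Pax8 rose by 1.72. En1 held 1.46 to 5.34 CPM at day 12 and 2.91 to 4.33 at day 21 and Hoxb4 2.31 to 5.68 CPM at day 12 and 1.66 to 4.76 at day 21, and neither passed. Trh, the thyrotropin-releasing hormone gene of the hypothalamus, fell from 14.5 to 61.9 CPM at day 12 to 0.721 to 2.91 at day 21 (log2 change −4.31 ± 0.49 SE, edgeR adjusted p = 4.55e-05), and the thalamic factor Tcf7l2 rose from 14.6 to 23.6 CPM at day 12 to 42.4 to 48.1 at day 21 (1.27).

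Astrocyte genes rose. Of 27 listed genes in the files, 24 were tested, 18 rose and none fell, with a median log2 change of 1.88. Gfap, the astrocyte intermediate filament, held 0.599 and 0.737 CPM in BJ1 and 0.921 and 0.972 in JB6 at day 12, and 436 and 237 in BJ1 and 119 and 66.3 in JB6 at day 21. The day 12 level was near 0 in every library (21 read bases in all), and at day 21 both BJ1 libraries lay above both JB6 libraries (log2 change 7.73 ± 0.44 SE, edgeR adjusted p = 3.65e-07). Agt, angiotensinogen, had 3 read bases over the day 12 libraries and 157 over the day 21 libraries, a ratio of 48.8 with a 95% exact counting interval of 16.4 to 239. Gjb6, the gap junction protein connexin 30, rose from 0.614 to 2.95 CPM at day 12 to 27.9 to 35.5 at day 21 (log2 change 4.25 ± 0.33 SE, edgeR adjusted p = 6.35e-07), and Aldh1l1, a folate enzyme used as a pan-astrocyte marker, by 3.63. The water channel Aqp4 (2.72), S100b (3.26) and the glutamate transporter Slc1a2 (log2 change 2.02 ± 0.26 SE, edgeR adjusted p = 6.68e-05) rose, as did the gliogenic factors Nfia (1.86) and Nfib (2.06). At day 12 Gjb6, Aldh1l1, Aqp4 and S100b had 41, 54, 21 and 24 read bases over the 4 libraries. With Gfap and Agt they entered the test through day 21, so the direction of their calls was nearly fixed. Apoe (−0.02), Clu (0.34) and Glul (0.45) were among the 6 that did not pass. Oligodendrocyte genes gave 4 rises and 2 falls among 12 tested. Cldn11, a tight junction protein of myelin and also of meninges, rose by 3.34, Bcas1 by 3.30 and Olig1 by 2.38, and Nkx6-2 fell by 2.55. Sox10, the defining factor of the lineage, had 44 and 18 read bases, and Olig2 and Mbp did not pass (−0.76 and 0.15).

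Proliferation genes fell as a group. All 41 cell cycle genes that the tables hold were tested, 40 fell and none rose, with a median log2 change of −1.62 and a summed level of 6261 to 6875 CPM at day 12 and 2069 to 2736 at day 21. Cenpa, the centromeric histone, held 161 and 138 CPM in BJ1 and 131 and 144 in JB6 at day 12, and 29.3 and 32.2 in BJ1 and 23.1 and 37.3 in JB6 at day 21. Its days did not overlap (log2 change −2.24 ± 0.17 SE, edgeR adjusted p = 3.83e-07). Top2a, the topoisomerase that untangles chromosomes, fell from 282 to 488 CPM at day 12 to 55.1 to 99.1 at day 21 (−2.22), the mitotic cyclin Ccnb1 from 144 to 244 CPM at day 12 to 31.6 to 45.5 at day 21 (−2.18) and the ubiquitin enzyme Ube2c from 519 to 632 CPM at day 12 to 83.5 to 163 at day 21 (−2.12). Mki67, the Ki-67 proliferation marker, fell by 1.30 with overlapping days, at 110.5 to 297 CPM at day 12 and 38.4 to 124 at day 21. The exception was Ccnd2, a G1 cyclin, at 334 to 409 CPM at day 12 and 338 to 411 at day 21.

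Promoters of this group are shown because its members moved together. In many cell cycle genes the CHR element, TTTGAA, and the CCAAT box bound by NF-Y are known promoter elements. The sequences are RefSeq's, build GRCm38.p6, for the 250 bases before the annotated start of the 4 genes with the largest falls, and capitals mark each TTTGAA or CCAAT on either strand (TTCAAA or ATTGG where it lies on the other).
Cenpa, chr5:30666636-30666885, + strand: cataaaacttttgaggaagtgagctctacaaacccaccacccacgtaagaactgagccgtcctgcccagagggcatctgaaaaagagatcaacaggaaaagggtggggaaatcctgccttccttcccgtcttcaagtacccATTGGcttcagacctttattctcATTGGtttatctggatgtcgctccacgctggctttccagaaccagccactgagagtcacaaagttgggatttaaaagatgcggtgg
Top2a, chr11:99024190-99024439, − strand: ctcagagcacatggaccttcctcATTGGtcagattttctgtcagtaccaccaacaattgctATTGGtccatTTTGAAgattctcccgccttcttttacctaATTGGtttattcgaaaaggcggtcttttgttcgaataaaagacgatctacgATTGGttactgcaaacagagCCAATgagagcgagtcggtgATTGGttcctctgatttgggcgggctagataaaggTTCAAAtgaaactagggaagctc
Ccnb1, chr13:100786487-100786736, − strand: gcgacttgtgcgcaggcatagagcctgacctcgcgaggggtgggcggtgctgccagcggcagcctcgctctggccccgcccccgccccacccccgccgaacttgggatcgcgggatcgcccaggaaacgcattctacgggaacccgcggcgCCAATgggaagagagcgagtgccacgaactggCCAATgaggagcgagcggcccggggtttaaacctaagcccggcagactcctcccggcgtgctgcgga
Ube2c, chr2:164769679-164769928, + strand: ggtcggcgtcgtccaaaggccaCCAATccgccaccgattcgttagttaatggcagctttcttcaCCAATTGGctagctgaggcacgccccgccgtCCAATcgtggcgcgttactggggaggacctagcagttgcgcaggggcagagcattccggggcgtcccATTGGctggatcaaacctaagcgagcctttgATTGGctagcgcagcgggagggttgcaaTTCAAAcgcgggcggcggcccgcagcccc
Of the 41 tested genes 35 matched a promoter by gene number. CCAAT was found in 27 of the 35 windows (77.1%) and in 36.2% of the 8900 matched windows of genes tested for expression. TTTGAA was found in 11 (31.4%), against 9.92%, and all 11 also held CCAAT, against 3.84% with both. Of the 4 windows shown, Top2a and Ube2c held both motifs and Cenpa and Ccnb1 held CCAAT alone. A match is a description of letters and not of a bound site.

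**Figure D2:**
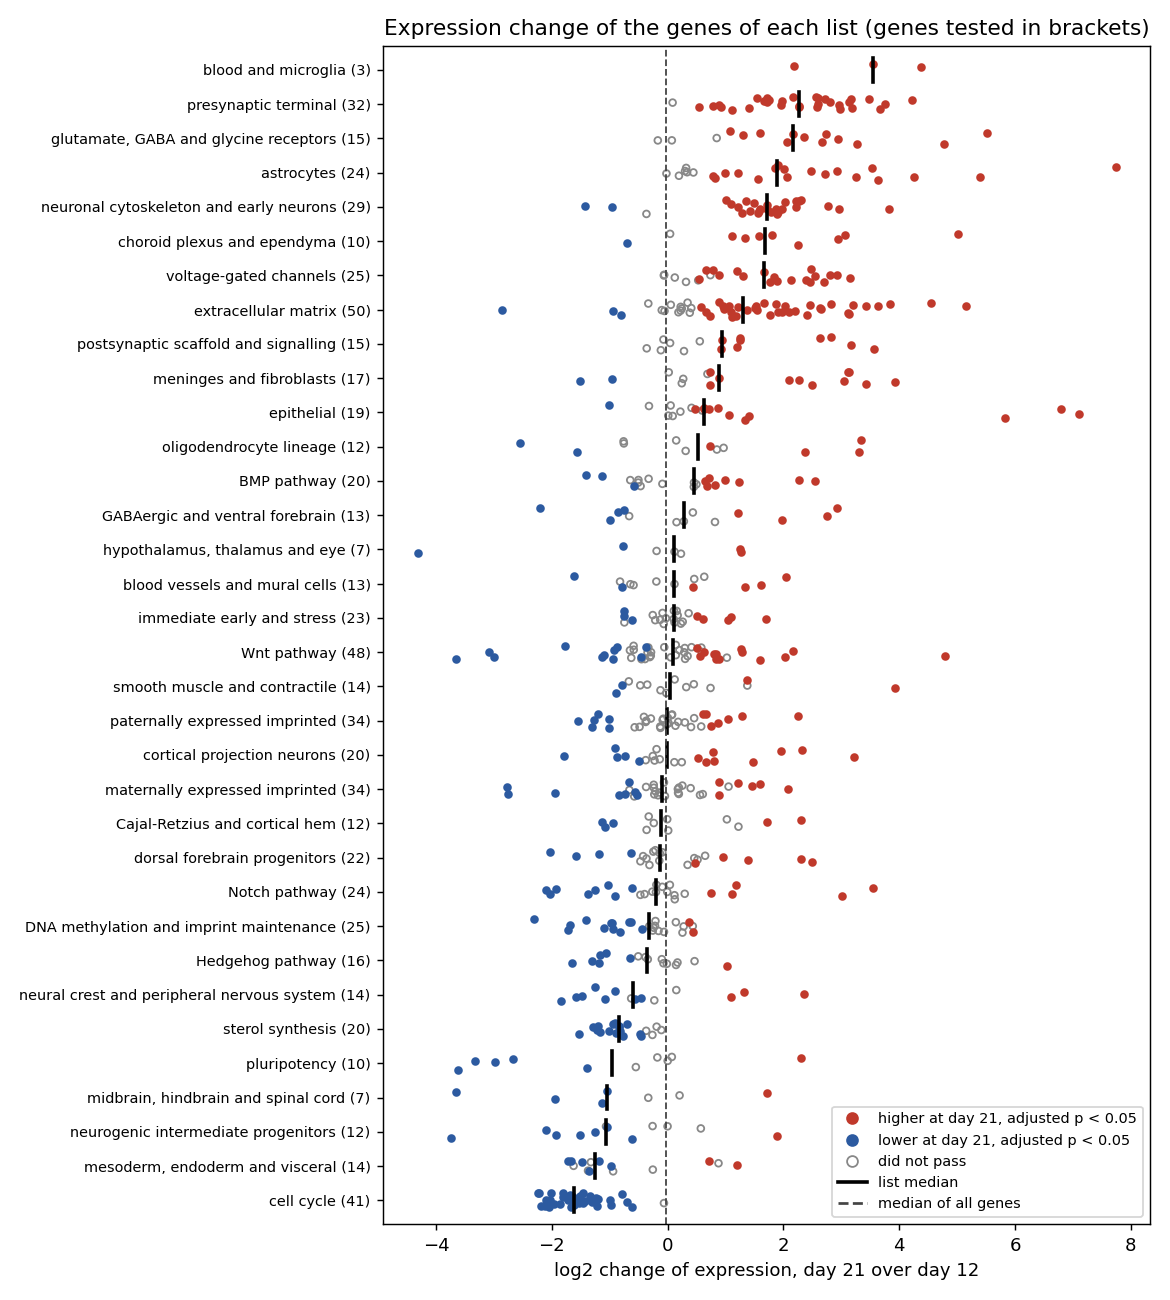
The log2 change of expression (day 21 over day 12) of every tested gene of the 34 lists, with lists ordered by their median. Filled red and blue points passed the test, open points did not, black bars are list medians, and the dashed line is the median of all 11255 genes at −0.02. All but 1 of the 41 cell cycle genes lie to the left as blue points, and all but 1 of the 32 presynaptic genes to the right as red points.

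Genes known from early embryonic cells had some of the largest falls. Among tested genes outside the lists averaging 100 or more read bases a library, the largest falls were in Igdcc3 and Hmga2. Igdcc3, an immunoglobulin superfamily member, fell from 437 to 876 CPM at day 12 to 23.3 to 34.7 at day 21 (log2 change −4.37 ± 0.22 SE, edgeR adjusted p = 1.94e-08). Hmga2, an architectural chromatin protein of embryonic growth, held 559 and 576 CPM in BJ1 and 656 and 689 in JB6 at day 12, and 42.1 and 48.9 in BJ1 and 51.2 and 37.2 in JB6 at day 21. Hmga2 fell by 3.78 on the log2 scale (SE 0.16, edgeR adjusted p = 3.88e-09), and its values within a day differed little between crosses. Prtg, an early neural adhesion protein, fell by 3.68, Mir17hg, the host of the miR-17 cluster, by 2.53, and Arid3b by 2.48. From the pluripotency list, Lin28b, the RNA-binding repressor of let-7, fell from 34.3 to 42.2 CPM at day 12 to 1.57 to 4.98 at day 21 (log2 change −3.63 ± 0.27 SE, edgeR adjusted p = 3.69e-07), Sall4 from 69.3 to 121 CPM at day 12 to 8.79 to 17.7 at day 21 and Trim71 by 2.66 on the log2 scale. In that list 5 of 10 tested genes fell and Klf4, which is also a factor of skin epithelium, rose by 2.31. Nanog had 11 read bases at day 12 and 5 at day 21. A pair of retinoid genes was also among the largest falls, the binding protein gene Crabp1, from 1191 to 2031 CPM at day 12 to 99.1 to 218 at day 21 (−3.49), and the retinoic acid hydroxylase Cyp26a1, from 34.8 to 71.1 CPM at day 12 to 5.51 to 8.5 at day 21 (−2.97). Mapk12, E130306D19Rik and Fndc3c1 fell by 2.81, 2.79 and 2.79.

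Chromatin and sterol genes fell with them. Of 25 tested genes of DNA methylation and imprint maintenance, 12 fell and 2 rose. The chromatin remodeller Hells fell by 2.30 on the log2 scale, the Polycomb methyltransferase Ezh2 from 77.7 to 92.3 CPM at day 12 to 19.3 to 30.2 at day 21 (−1.72), the de novo methyltransferase Dnmt3b from 34.5 to 63.1 CPM at day 12 to 11.2 to 20.1 at day 21 (−1.68), and Uhrf1, which recruits DNMT1 at replication, from 160.3 to 201 CPM at day 12 to 49.2 to 79.96 at day 21 (−1.41). Dnmt1 fell by 0.67. Dnmt3a rose by 0.38 (edgeR adjusted p = 0.0436), and Mbd1 rose by 0.44. The 2 rises became 0 without a cross term, without day 12 BJ1 replicate 1, without day 12 JB6 replicate 2 and without day 21 BJ1 replicate 2, and 1 with a replicate block, with no filter and in the fits without each of day 12 BJ1 replicate 2, day 12 JB6 replicate 1, day 21 BJ1 replicate 1 and day 21 JB6 replicate 1. Sterol synthesis genes gave 16 falls and no rise among 20 tested, with a median log2 change of −0.84. The sterol carrier gene Stard4 fell by 1.28, and the pathway enzymes Idi1, Mvd and Sc4mol fell by 1.54, 1.22 and 1.20.

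Signalling pathways were mixed. Of 24 Notch genes tested, 8 fell and 5 rose. The ligands Dll1 and Dll3 and the targets Hes5, Nrarp (−1.37), Hey1 (−1.03) and Hey2 (−0.90) fell, while the receptor Notch2 rose from 125 to 214 CPM at day 12 to 346 to 424 at day 21 (1.11) and the non-canonical ligands Dner (3.55) and Dlk2 (3.01) rose. Notch1 held 52.5 to 100.4 CPM at day 12 and 56.7 to 83.6 at day 21 and did not pass. The target Heyl rose as well (1.17). Of 16 Hedgehog genes 6 fell and 1 rose. Gli1, the direct target of the pathway, fell from 43.1 to 72.5 CPM at day 12 to 21 to 40.6 at day 21 (log2 change −1.16 ± 0.24 SE, edgeR adjusted p = 0.00159). The target and receptor Ptch1 fell by 0.65 and the antagonist and target Hhip by 1.31, and the co-receptor Boc rose by 1.02. Of 48 Wnt genes 13 rose and 11 fell, near the shares of all genes tested, 25.2% and 22.5%. The ligand Wnt2 fell from 16.6 to 54.2 CPM at day 12 to 2.16 to 7.36 at day 21 (−3.00) and the antagonist Dkk1 from 9.21 to 20.4 CPM at day 12 to 0.577 to 3.02 at day 21 (−3.09). The secreted frizzled-related protein Sfrp4, with 5 read bases at day 12 and 170 at day 21, rose by 4.79, and Dkk3 rose from 42.5 to 80.4 CPM at day 12 to 181 to 276 at day 21 (2.02). Of 20 BMP genes 8 rose and 3 fell. The ligands Bmp6 (2.55), Gdf10 (2.27) and Bmp7 (0.83) rose, and the feedback inhibitors Bambi (−1.41) and Smad6 (−1.13) fell. The BMP count of 8 was 5 without day 21 JB6 replicate 1.

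Genes of mesenchyme and of its extracellular matrix also rose. Of 50 tested extracellular matrix genes 36 rose and 3 fell, with a summed level of 13131 to 14313 CPM at day 12 and 27988 to 37512 at day 21. Col1a1, the main chain of type I collagen, held 33.1 and 45.5 CPM in BJ1 and 43.9 and 39 in JB6 at day 12, and 443 and 357 in BJ1 and 356 and 263 in JB6 at day 21. The days did not overlap (log2 change 3.12 ± 0.18 SE, edgeR adjusted p = 4.58e-08). Col3a1, the chain of type III collagen, rose from 1241 to 2055 CPM at day 12 to 5467 to 8613 at day 21 (log2 change 2.09 ± 0.22 SE, edgeR adjusted p = 6.98e-06), and Dcn, decorin of fibroblasts and meninges, from 21.4 to 45.4 CPM at day 12 to 201 to 275 at day 21 (log2 change 3.14 ± 0.20 SE, edgeR adjusted p = 1.62e-07). Elastin (Eln) rose by 4.54, the cross-linking enzyme Lox by 3.84 and Col6a3 by 3.63. Bcan, brevican, the matrix proteoglycan of brain, had 18 read bases at day 12 and 25.1 to 28.1 CPM at day 21 (5.16). Col9a1, a collagen of cartilage, fell from 157 to 388 CPM at day 12 to 16.3 to 60.3 at day 21 (−2.85). Among 17 tested genes of meninges and fibroblasts 11 rose and 2, Crabp2 and Foxd1, fell. Slc6a13, a GABA transporter of meninges, rose from 7.36 to 13 CPM at day 12 to 121 to 209 at day 21 (log2 change 3.92 ± 0.20 SE, edgeR adjusted p = 1.94e-08).

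Keratins were among the genes with the largest rises. In the epithelial list 11 of 19 tested genes rose and 1 fell. Krt15, a keratin of basal cells of stratified epithelium, held 27.6 and 26.3 CPM in BJ1 and 15.8 and 11.7 in JB6 at day 12, and 3971 and 2518 in BJ1 and 1604 and 2726 in JB6 at day 21. All 4 day 21 libraries lay far above the day 12 libraries, as the plot of levels by library shows (log2 change 7.10 ± 0.28 SE, edgeR adjusted p = 2.5e-09). Krt14 and Krt5, the keratin pair of basal keratinocytes, rose from 1.07 to 4.19 CPM at day 12 to 174 to 585 at day 21 (log2 change 6.80 ± 0.27 SE, edgeR adjusted p = 3.88e-09) and from 0.608 to 10.3 CPM at day 12 to 179.9 to 486 at day 21 (5.82). Krt8, Krt18 and Epcam, of simple epithelium, did not pass (0.22, −0.32 and 0.01), and they held 1006 to 1737 CPM at day 12 and 1327 to 1941 at day 21, 789 to 1461 CPM at day 12 and 762 to 1160.3 at day 21, and 239 to 318 CPM at day 12 and 254 to 304 at day 21. The claudin Cldn6 of early embryonic epithelium fell by 1.00. Trp63, the master factor of stratified epithelium, held 28 to 42.2 CPM at day 12 and 29.8 to 47.7 at day 21 (0.05, not passed).

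Among tested genes outside the lists that averaged 100 or more read bases a library, 7 of the 10 largest rises were epithelial. Genes with no read base at day 12 were not tested and so not ranked, among them Cyp2f2, Krt4 and Krt10. At day 21 Cyp2f2 had 9619 read bases over 4 libraries. Krtdap, a secreted protein of differentiating keratinocytes, had 1 read base over the day 12 libraries and 14555 over the day 21 libraries, at 118 to 1023 CPM, a ratio of 13561 with a 95% exact counting interval of 2434 to 535677. Krt1, of the upper epidermis, went from 5 read bases to 2919, with 249 CPM in BJ1 replicate 2 and 18.1 in JB6 replicate 2 (8.62). Krt6a, Krt16 and Krt17, keratins of wounded or appendage epithelium, rose by 7.05, 7.78 and 7.47, the desmosome protein Pkp1 by 6.88 and the mucin Muc4 by 8.60. The other 3 were Ptgds, the prostaglandin D synthase of meninges and choroid plexus, with 8 read bases at day 12 and 196 to 372 CPM at day 21 (9.52), Sidt1 (7.79) and the secreted protein gene C1qtnf3. C1qtnf3 had 2 read bases at day 12 and 1026 at day 21, a ratio of 478 with a 95% exact counting interval of 132 to 3952.

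Other non-neural lists changed less uniformly. Of 14 neural crest genes 8 fell and 3 rose, with falls in Prrx2 (−1.84), Msx1 (−1.58), Msx2 (−1.48) and Twist1 (−1.25) and a rise in the neurotrophin receptor Ngfr (2.35). Of 14 mesoderm, endoderm and visceral genes 6 fell and 2 rose. Gata4, of heart and gut, fell from 29.8 to 77.8 CPM at day 12 to 8.73 to 18.9 at day 21 (−1.71) and Foxa1 rose by 1.19. Of 14 smooth muscle and contractile genes 2 rose and 2 fell. Myh11, the smooth muscle myosin, rose by 3.92, and Acta2 did not pass (−0.47), with 193 to 1410 CPM at day 12, where the highest value was that of JB6 replicate 2. The count of 2 rises was 5 without that library and 4 without day 21 JB6 replicate 2. Among 13 vascular genes 4 rose, among them Anpep (2.05) and Flt1 (1.62), and 2 fell, the endothelial receptor Tie1 (−1.61) and the endothelial mucin Emcn. The falls were 1 with scaling to the library total, with a replicate block, in the fit of all 25 hybrid libraries and without each of day 12 BJ1 replicate 1, day 12 JB6 replicate 2, day 21 JB6 replicate 1 and day 21 JB6 replicate 2. Pecam1, the endothelial adhesion molecule, did not pass (0.12).

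Of 11 blood and microglia genes in the files, 3 were tested, and all 3 rose: the receptors Csf1r (log2 change 2.18 ± 0.33 SE, edgeR adjusted p = 0.000301) and Cx3cr1 (log2 change 4.37 ± 0.73 SE, edgeR adjusted p = 0.000596) and the adaptor Tyrobp (3.55). Cx3cr1 held 40.5 CPM in day 21 BJ1 replicate 2 and 3.62 to 8.22 in the other day 21 libraries, against 0.2 to 0.729 at day 12. With 13 read bases at day 12 and 419 at day 21, it entered the test through its day 21 libraries. Of 10 choroid plexus and ependyma genes 8 rose and 1, Clic6, fell. The fall was lost with scaling to the library total, in the fit of all 25 hybrid libraries, without day 12 BJ1 replicate 1 and without day 21 BJ1 replicate 1, day 21 BJ1 replicate 2 or day 21 JB6 replicate 2. The risers included the cilium genes Dnahc9 (5.01), Ak7 (3.07), Dnahc5 (2.94) and Foxj1 (1.81), the ciliary master factor, and also Calml4 (2.24), whereas Ttr, the defining choroid plexus transcript, had 2 and 3 read bases. Immediate early and stress genes gave 5 rises and 3 falls among 23, led by Fosl2 (1.70) and Ier3 (1.09). The 5 rises were 3 without day 21 BJ1 replicate 1.

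**Figure D3:**
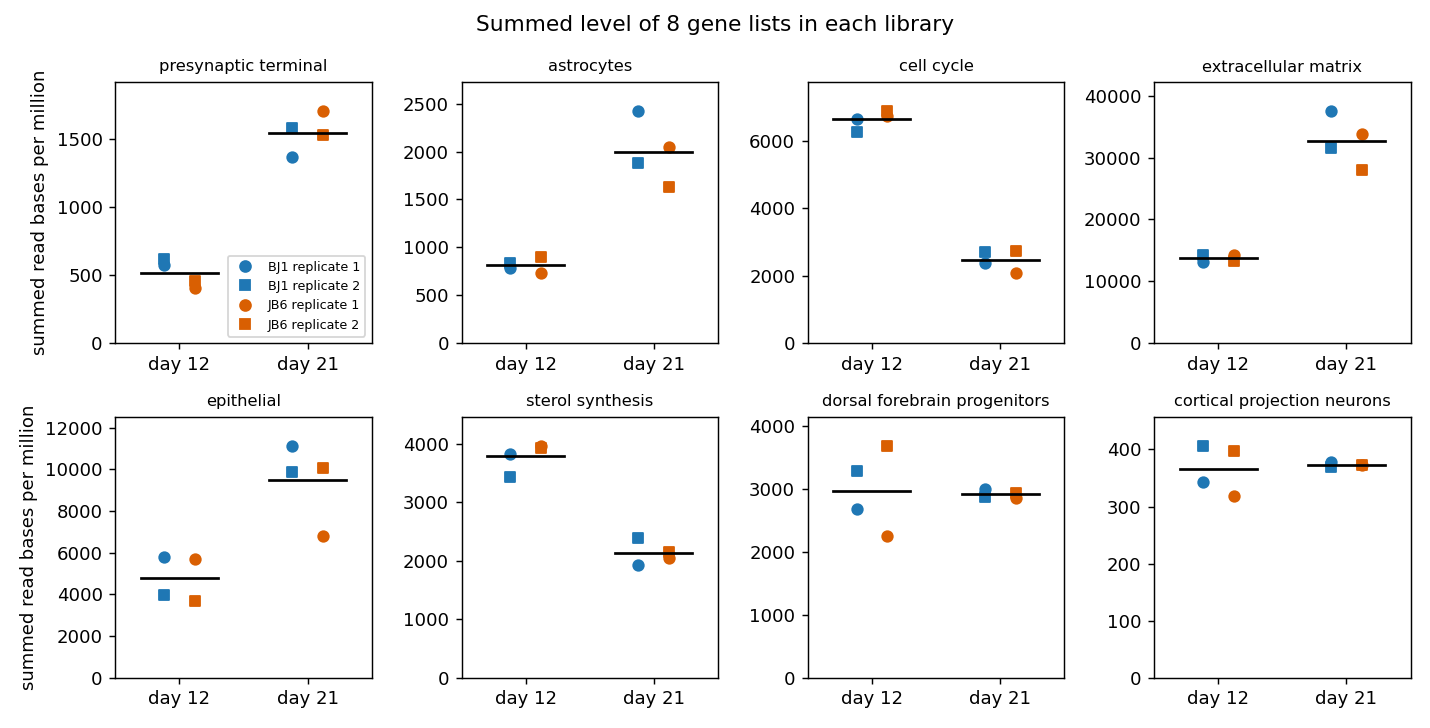
Summed level of 8 gene lists in CPM of read bases, with axes from 0 and 1 point per library, coloured by cross and shaped by replicate, and a bar at the mean of 4 libraries. The presynaptic, astrocyte, extracellular matrix and epithelial sums lay higher in all 4 day 21 libraries, the cell cycle and sterol sums lower, and the sums of dorsal progenitors and projection neurons overlapped.

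The change was next compared between crosses. No gene passed the test of the interaction of day and cross (0 of 11255, 0%, by edgeR), 686 genes (6.1%) had an unadjusted p under 0.05, and DESeq2 called 11. The smallest adjusted p was 0.347, for Postn, periostin of mesenchyme, whose log2 change was 2.02 larger in BJ1 than in JB6. Leaving out day 21 BJ1 replicate 1 gave 2 calls. The crosses did differ in level within a day for members named above, as for Gfap at day 21 and Neurog1 and Wnt1 at day 12.

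Imprinted genes moved both ways in level, at shares near or below those of all genes tested, of which 25.2% rose and 22.5% fell. Of 34 tested genes known as maternally expressed 6 rose and 8 fell, and of 34 known as paternally expressed 7 rose and 6 fell, with medians of −0.10 and −0.0025 on the log2 scale. Asb4, a maternally expressed ubiquitin ligase component, fell from 103 to 323 CPM at day 12 to 16.4 to 44.6 at day 21 (log2 change −2.78 ± 0.21 SE, edgeR adjusted p = 4.8e-07), and Phlda2, a placental growth restrictor, from 6.63 to 15.4 CPM at day 12 to 1.3 to 2.05 at day 21 (−2.76). Cobl (2.07), Pon2 (1.60) and Osbpl5 (1.45) rose. Of the paternally expressed genes, Peg13, a brain non-coding RNA, rose from 10.9 to 29.6 CPM at day 12 to 68 to 107 at day 21 (log2 change 2.25 ± 0.21 SE, edgeR adjusted p = 2.98e-06), and the neuronal genes Nnat (1.29), Ndn (1.04) and Snrpn (0.66) rose, while Slc38a4 (−1.21) and Mest (−1.02) fell. H19 and Igf2, growth regulators of 1 domain, held 6136 to 8329.9 CPM at day 12 and 6485 to 10345 at day 21 and 3169 to 4546 CPM at day 12 and 4055 to 5506 at day 21, and neither passed.

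The maternal share of the read bases of a gene, averaged over the crosses, changed for 5 of 10095 autosomal genes (0.0495%), 4 to the paternal side (0.0396%) and 1 to the maternal side (0.00991%), while 570 (5.65%) had an unadjusted p under 0.05. The test was a contrast between days of the parental term of a joint edgeR fit of the 25 hybrid libraries of the series. In 1 cross alone the share changed for 72 genes in BJ1 (0.713%), 36 each way (0.357%), and for 63 in JB6 (0.624%), 35 to the maternal (0.347%) and 28 to the paternal side (0.277%). An unadjusted p under 0.05 was found for 10.3% of genes in BJ1 and 9.86% in JB6. Of the genes called in both crosses, 1 moved the same way, Inpp5f (0.00991%), and 23 moved in opposite ways (0.228%). The count of 5 was 3 without day 12 BJ1 replicate 2, day 21 BJ1 replicate 2, day 21 JB6 replicate 1 or day 21 JB6 replicate 2, and 2 without day 12 JB6 replicate 2. Leaving out any 1 BJ1 library gave 21 to 44 calls in BJ1, and any 1 JB6 library 20 to 26 in JB6.

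Inpp5f, which encodes a phosphoinositide phosphatase, lies on chromosome 7 and has a brain transcript known to come from the paternal allele. Its maternal share was 40.2% and 23.1% in BJ1 and 53.4% and 49.6% in JB6 at day 12, and 15.7% and 10.6% in BJ1 and 18.2% and 15.1% in JB6 at day 21, on 117 to 423 read bases a library. Both crosses moved to the paternal side, with no overlap between days, by 18.5 percentage points in BJ1 and 34.9 in JB6 (log2 change of the maternal to paternal ratio −1.95 ± 0.19 SE, edgeR adjusted p = 2.82e-09). The maternal allele held 12.2 ± 4.61 CPM (SD, n = 4) at day 12 and 7.01 ± 3.31 at day 21, and the paternal allele 17.1 ± 4.78 CPM (SD, n = 4) at day 12 and 38.6 ± 10.1 at day 21. The gene's total rose (log2 change 0.62 ± 0.18 SE, edgeR adjusted p = 0.0114).

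Col1a2, the second chain of type I collagen, lies on chromosome 6, next to Casd1 in the RefSeq gene order and in the neighbourhood of the imprinted genes Sgce and Peg10. Its maternal share was 71% and 72.3% in BJ1 and 41.7% and 41.6% in JB6 at day 12, and 60.2% and 60.1% in BJ1 and 33.5% and 36.3% in JB6 at day 21, on 648 to 11996 read bases. The crosses stood on opposite sides of 50% at both days, and both moved to the paternal side (log2 change of the maternal to paternal ratio −0.58 ± 0.08 SE, edgeR adjusted p = 1.54e-05). Both alleles lay higher at day 21, the maternal at 42.1 to 120.4 CPM at day 12 and 425 to 1040.3 at day 21 and the paternal at 37.5 to 80.2 CPM at day 12 and 619 to 860.1 at day 21. With limma on log2 ratios the change was of the same size and did not pass (adjusted p = 0.9995).

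The other 3 genes follow. Klhdc10, on chromosome 6 and 4 genes from the imprinted Cpa4 in that order, went from a maternal share of 66.1% and 68.7% in BJ1 and 63.6% and 63.9% in JB6 to 58.8% and 61.6% and to 53.8% and 57.6% (log2 change of the maternal to paternal ratio −0.46 ± 0.09 SE, edgeR adjusted p = 0.00751). The maternal share of Klhdc10 thus lay above 50% in both crosses at both days. Poli, a DNA repair polymerase on chromosome 18, went from 50.2% and 51.1% in BJ1 and 61.7% and 65.5% in JB6 to 35.5% and 37.1% and to 48.3% and 54.1% (log2 change of the maternal to paternal ratio −0.82 ± 0.15 SE, edgeR adjusted p = 0.00751). Atp6v0e2, a subunit of the vesicular proton pump on chromosome 6, moved to the maternal side, from 53.3% and 57.1% in BJ1 and 32.6% and 36.1% in JB6 to 57.6% and 59.4% and to 42% and 42.7% (log2 change of the maternal to paternal ratio 0.36 ± 0.07 SE, edgeR adjusted p = 0.025). Its JB6 replicates did not overlap between days, and its BJ1 libraries were 57.1% and 53.3% at day 12 and 57.6% and 59.4% at day 21. These 3 calls were lost in 5 to 10 of the 16 alternatives each, including the fit with counts divided by 3, while Inpp5f kept its call in all 16 and Col1a2 in 15.

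**Figure D4:**
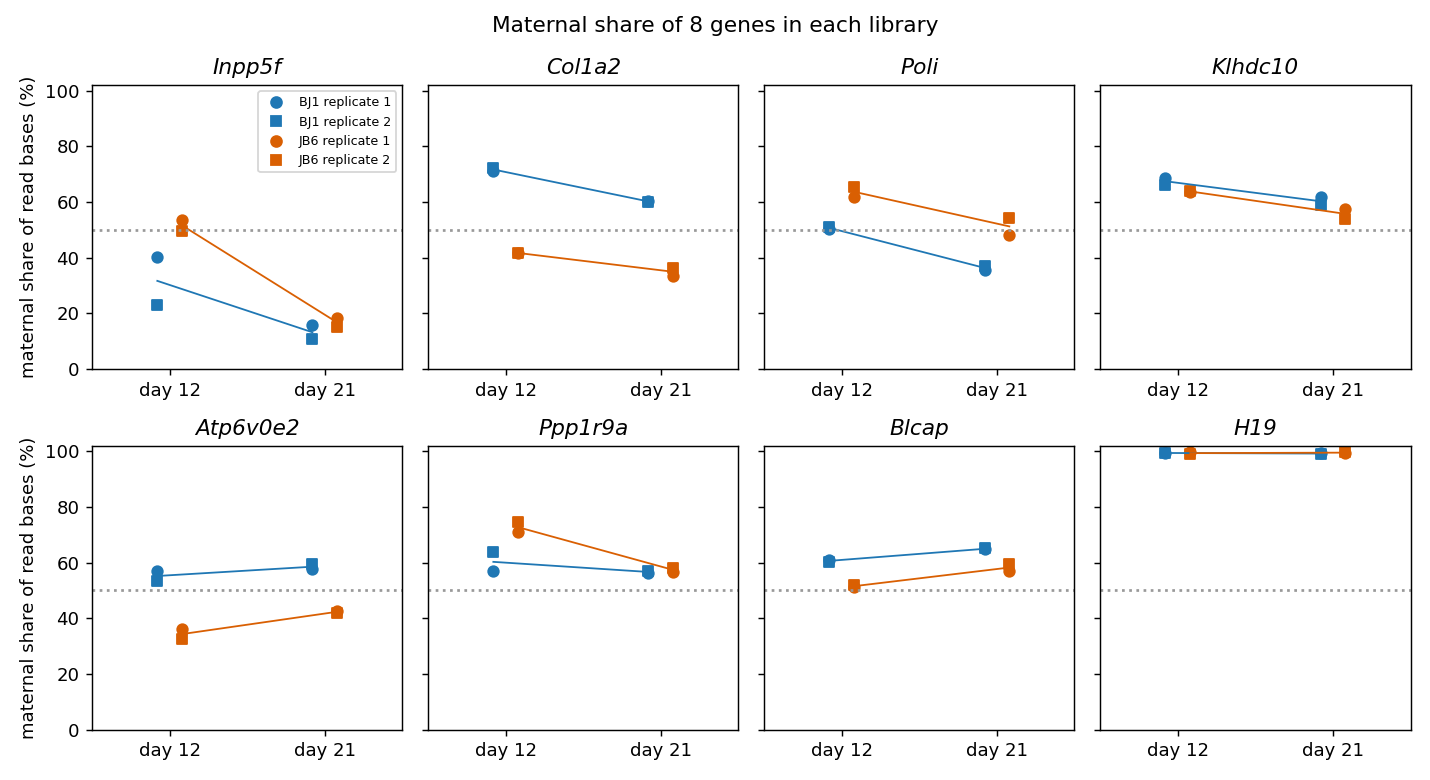
Maternal share of read bases (%) at day 12 and day 21 for 8 genes, with 1 point per library, coloured by cross and shaped by replicate, lines between the cross means, and a dotted line at 50%. Inpp5f, Col1a2, Poli and Klhdc10 fall in both crosses, Atp6v0e2 and Blcap lie higher at day 21 in both, and H19 lies near 99% at both days.

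Of 64 tested imprinted genes, 18 lay at or above 90% or at or below 10% maternal at both days, against 19 of all 10095 genes. H19 was 99.4% at day 12 and 99.3% at day 21, Grb10 99.6% at day 12 and 99% at day 21, Peg10 0.268% at day 12 and 0.177% at day 21, Peg3 0.874% at day 12 and 0.801% at day 21, Mest 0.146% at day 12 and 0.2% at day 21 and Plagl1 1.88% at day 12 and 1.99% at day 21, as means of 4 libraries. A change of maternal share passed for 1 of 32 tested genes listed as maternally expressed and for 1 of 32 listed as paternally expressed. Among all 10095 genes it passed for 5. Beyond the passing genes, 11 listed imprinted genes had an unadjusted p under 0.05, and none of these passed the adjustment. Ddc, which has a paternally expressed transcript in heart, went from a mean of 18.1% to 34.6% and had 10 points or more of change the same way in both crosses. Its libraries were 5.26% and 13.7% in BJ1 and 35.9% and 17.6% in JB6 at day 12, and 23.7% and 32.4% in BJ1 and 35.1% and 47.5% in JB6 at day 21, on 51 read bases or more, and its adjusted p was 0.517. Ppp1r9a, of the Peg10 domain, went from 56.8% and 63.7% in BJ1 and 71% and 74.4% in JB6 to 56.4% and 56.9% and to 56.5% and 58.2% (adjusted p = 0.184), and Blcap, next to the imprinted Nnat, from 60.4% and 60.9% in BJ1 and 51.2% and 51.9% in JB6 to 64.8% and 65.1% and to 56.9% and 59.5% (adjusted p = 0.332). Dlk1, a Notch-family ligand, was 22.3% and 27.4% maternal in BJ1 at day 12 and 35.4% and 28.3% at day 21, and 4.19% to 5.95% in JB6 (adjusted p = 0.676). The values for Grb10 (−0.618 in BJ1 and −0.48 in JB6), Igf2 (2.17 in BJ1 and 1.35 in JB6), Mirg (5.6 in BJ1 and 1.73 in JB6) and Sgce (−1.89 in BJ1 and −0.987 in JB6) are given as changes of the cross mean in points and did not pass. Atp10a (−25.4 in BJ1 and 1.94 in JB6), Pon2 (1.6 in BJ1 and −17.7 in JB6) and Slc22a18 (−18.1 in BJ1 and 0.559 in JB6) had values of opposite sign in the crosses, on 22 to 76 read bases in their lowest library. The test of the B6 share did not pass for these 3 genes, with edgeR adjusted p-values of 0.164, 0.228 and 0.323.

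The Peg10 domain on chromosome 6, beside which Col1a2 lies, was singled out after its values were seen and is given as means of 4 libraries. Sgce and Peg10, its paternally expressed core, were 2.73% at day 12 and 1.29% at day 21 and 0.268% at day 12 and 0.177% at day 21. Casd1 was 58.9% at day 12 and 53.6% at day 21, Ppp1r9a 66.5% at day 12 and 57% at day 21, Pon2 59.3% at day 12 and 51.3% at day 21 and Asb4 86.8% at day 12 and 83.6% at day 21, and Col1a2 56.6% at day 12 and 47.5% at day 21. Of these changes that of Col1a2 passed.

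Genes that moved in both crosses were also counted without a test. Of 9362 genes with at least 20 read bases in each of the 8 libraries, 61 (0.652%) changed by 10 points or more the same way in both crosses, and 161 (1.72%) in opposite ways. Without overlap of the days in either cross these were 36 (0.385%) and 127 (1.36%). Of the 36, 18 moved to each side (0.192%). Inpp5f and Poli were among them. Of the others the 10 with the largest mean change were, on the maternal side, Gm11110, Zfp658, Gtdc1, Fsd1l, Lyst, Ccnt1 and Ccdc76 and, on the paternal side, Birc3, 1300002E11Rik and Glis1. They were shallow, with 20 to 50 read bases in their lowest library, and adjusted p-values were 0.404 to 0.88. Fsd1l, for example, was 44.4% and 52.4% in BJ1 and 44.4% and 38.9% in JB6 at day 12, and 60.5% and 57.9% in BJ1 and 60.5% and 72.3% in JB6 at day 21.

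Changes in opposite ways in the crosses are changes of the share of the B6 allele whatever its parent. The B6 share changed for 231 genes (2.29%), 113 up (1.12%) and 118 down (1.17%), and 1381 (13.7%) had an unadjusted p under 0.05. In all 231 the maternal share moved in opposite ways in the crosses, which the test favours because it sets the change in BJ1 against that in JB6. In 139 the share lay nearer 50% at day 21. The same count was not made over all genes, so it does not set the called genes apart. The 231 calls were 139 without day 21 BJ1 replicate 1 and 150 without day 21 JB6 replicate 2. Of the 231, 62.3% also changed in total level, against 45.3% of all genes tested for alleles. Both kinds of call depend on depth, and these shares were not matched for it. Aldh1a1, a retinaldehyde dehydrogenase, is 1 of the 6 with the largest changes. Its maternal share was 68.8% and 54.5% in BJ1 and 47.4% and 59.5% in JB6 at day 12, and 17.4% and 19.6% in BJ1 and 83.3% and 81% in JB6 at day 21. The B6 share thus went from 61.6% in BJ1 and 46.6% in JB6 to 18.5% and 17.9% (log2 change of the B6 to JF1 ratio −2.49 ± 0.40 SE, edgeR adjusted p = 0.000114), while its total rose from 2.03 to 8.74 CPM at day 12 to 61 to 104 at day 21. Kif27, a cilium kinesin, went the other way, from 7.23% in BJ1 and 28.3% in JB6 to 60.4% and 51% (log2 change of the B6 to JF1 ratio 2.85 ± 0.41 SE, edgeR adjusted p = 1.18e-05). The fatty acid receptor Cd36 went from 19.5% in BJ1 and 15.9% in JB6 to 54.2% and 42.8% (log2 change of the B6 to JF1 ratio 2.12 ± 0.34 SE, edgeR adjusted p = 6.97e-05), Pi15 from 80.3% in BJ1 and 84.5% in JB6 to 45.2% and 52.5% (log2 change of the B6 to JF1 ratio −2.22 ± 0.45 SE, edgeR adjusted p = 0.00191), Cpne7 from 92.5% in BJ1 and 70.3% in JB6 to 58.8% and 53.4% (log2 change of the B6 to JF1 ratio −2.20 ± 0.50 SE, edgeR adjusted p = 0.00832) and Myo7a from 11.6% in BJ1 and 13.8% in JB6 to 1.32% and 0% (log2 change of the B6 to JF1 ratio −3.69 ± 0.96 SE, edgeR adjusted p = 0.0247). Their lowest libraries held 10 (Myo7a) to 45 (Cd36) read bases. Of these genes, Kif27 kept its call under every alternative tried, Myo7a lost it under 7 of 12 and Cpne7 under 5 of 12, and Aldh1a1, Cd36 and Pi15 under 1 each.

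**Figure D5:**
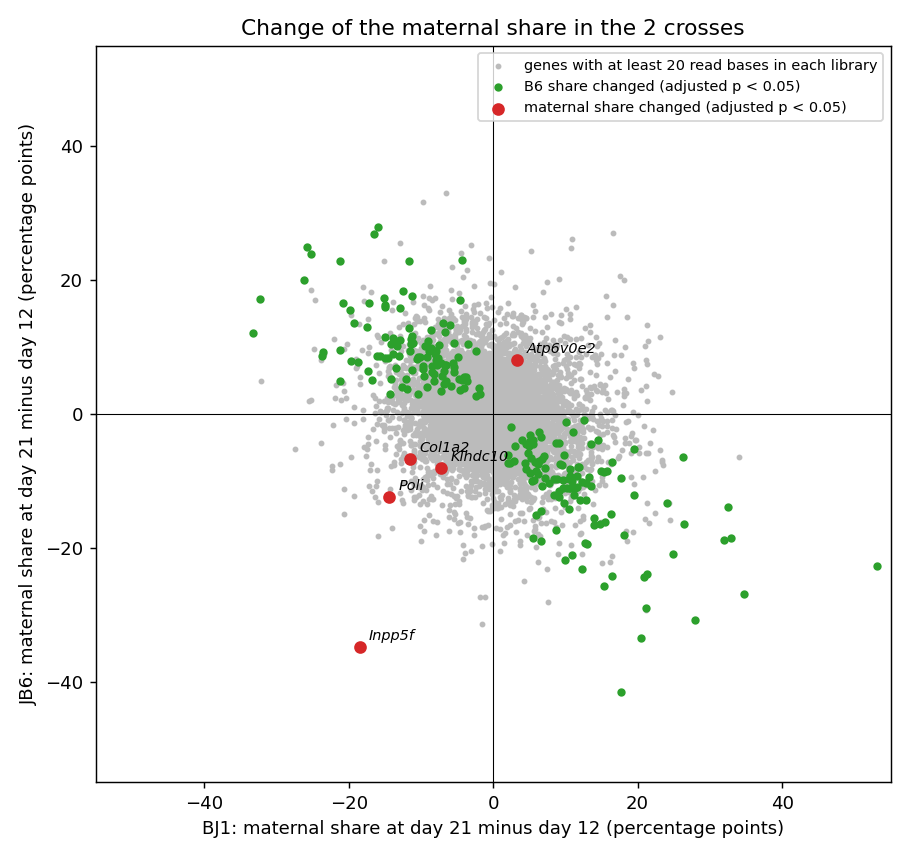
Change of the maternal share from day 12 to day 21 in percentage points, BJ1 on the horizontal and JB6 on the vertical axis, for 9362 genes with at least 20 read bases in each library. Genes whose B6 share changed (green) lie along the falling diagonal, and the 5 genes whose maternal share changed (red) lie at the lower left or upper right, with Inpp5f farthest out.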

How the data were processed

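The deposited tables give, per gene and library, counts of read bases of the maternal and of the paternal allele, summed by the authors from sense reads at positions where the strains differ (SAMtools mpileup 0.1.18, per the file headers). Alignment to mm9 with Novoalign is named in the submitters' processing notes, and the role of HTSeq and edgeR there is not given. A read over several such positions adds several read bases, so they are not independent molecules, and counting intervals cover that error alone. Positions with foreign strain sequence were removed by the authors, per the readme.

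Expression (both alleles summed) was tested in the 8 libraries with edgeR 4.0.16 (TMM scaling, robust quasi-likelihood test, terms for cross and day) in genes averaging 20 or more read bases a library. Maternal and paternal counts were fitted jointly in the 25 hybrid libraries of 5 stages, with a term per library and parental and strain terms per stage. P-values were Benjamini-Hochberg adjusted over all genes tested, at a threshold of 0.05. Libraries held 5266834 to 8618253 read bases, and at this depth 73% of simulated expression changes of 1 on the log2 scale and 98% of changes of 2 were recovered. For allelic changes these were 70% and 100%. The simulated allelic changes were placed only in genes well above the floor of 20 read bases. That simulation used the same spread for every gene and no strain bias. Its recovery therefore does not hold for genes near the floor, and recovery in shallow genes was not tested. DESeq2 1.42.0 and limma 3.58.1 were alternatives, with R 4.3.3 and Python 3.11.15.

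Genes were named by rule: up to 4 rising and 4 falling genes per list whose days do not overlap, up to 10 each way among other genes averaging 100 or more read bases, defining markers whatever their result, all genes whose parental contrast passed, listed imprinted genes with an unadjusted p under 0.05, up to 10 genes moving 10 points or more in both crosses, and up to 6 by change of B6 share. List members named in addition were chosen after their values were seen. The comparison and the gene lists were chosen with earlier results of these data known. Levels of each day come from a table that lists only genes with a read base at that day. Genes listed at only 1 of these days were left out of the tests. They were set to 0 at the other day for the levels shown and in an alternative that tested 11278 genes. Replicate numbers do not pair the libraries (correlation of deviations between days −0.0252 in BJ1 and −0.184 in JB6). The E14 cultures were not used here. Promoters came from RefSeq, GRCm38.p6. Some list members are not reported here.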

Additional observations from a re-analysis of the deposited data

Results flagged for a closer look

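The summed level of the immediate early and stress list was 2147 CPM in day 21 BJ1 replicate 1, apart from the other 3 day 21 libraries, of which the highest held 1755. It was the only library so placed among 78 groups of 4 tested, and chance places about 1 in 20. The change of the maternal share differed between the crosses for 231 genes by the test of the B6 share. Flagged here are only the 6 of them with the largest changes. Their log2 changes of the B6 to JF1 ratio were −3.69 for Myo7a, 2.85 for Kif27, −2.49 for Aldh1a1, −2.22 for Pi15, −2.20 for Cpne7 and 2.12 for Cd36.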

How the results depend on the processing

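Over 18 alternatives, 2506 to 3361 genes rose and 2085 to 2821 fell, and 175 of 187 named genes kept their call in every one. The other 12 lost it in at least 1 (Bmpr1a, Cald1, Cnn2, Dab2, Dnmt3a, Etv1, Foxj1, Foxp1, Hoxb2, Jun, Pdgfrb and Sox14), and none reversed. A replicate block gave 2683 rises and 2349 falls and 4 changes of maternal share, and with the numbers exchanged in JB6, an alternative added after the data were seen, 2821, 2552 and 5. The interaction of day and cross gave 11 calls with DESeq2 and 0 to 2 when 1 library was left out. Changes of maternal share averaged over crosses numbered 2 with counts divided by 3, 9 with limma on log2 ratios and 2 to 5 when 1 library was left out. In BJ1 these were 26, 19 and 21 to 75, in JB6 21, 10 and 20 to 61, and for the B6 share 92, 65 and 139 to 203. A fit of the 8 libraries alone gave 4 changes averaged over crosses, 100 in BJ1, 83 in JB6 and 232 of the B6 share. The cause of the moves was not tested. Counts of 68 list directions kept within 1.5 times in 53, and the others were counts of 8 or fewer. Genes under a mean of 20 read bases per library and allelic changes in shallow genes were limited by depth.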

Other observations

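Gene sets outside the lists were looked at after their values were seen, so their counts are descriptions. Several genes of skeletal muscle rose. Myog, the myogenin transcription factor, held 7.59 and 20.8 CPM in BJ1 and 2.15 and 0.851 in JB6 at day 12, and 308 and 188 in BJ1 and 81.7 and 49.1 in JB6 at day 21. The BJ1 libraries were the higher pair at both days. Myod1, a second myogenic factor, changed by 3.53 on the log2 scale, the embryonic and perinatal myosins Myh3 and Myh8 by 4.63 and 5.27, and the light chain Mylpf by 3.53, all past the threshold, while Ttn (1.18) and Actn2 (0.95) did not pass and their days overlapped. Myf5, Chrng and Pax7, with 17 and 22, 25 and 72, and 3 and 9 read bases at day 12 and day 21, were not tested.

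Of 14 tested genes named Krt with a number, 12 rose and none fell, with a median log2 change of 4.61. Krt10 and Krt4, of the upper epidermis and of internal stratified epithelium, are not listed in the day 12 table, which is taken as 0 read bases. At day 21 they had 3181 and 4822 read bases over 4 libraries, and Krt10 ranged from 20 CPM in JB6 replicate 2 to 259 in BJ1 replicate 2. Dsg3, a desmosomal cadherin, had 2 read bases at day 12 and 240 at day 21. Of 57 tested genes of cytoplasmic ribosomal proteins, 53 fell and none rose, with a median log2 change of −1.06. Their summed level was 88079 to 139195 CPM at day 12 and 42476 to 68174 at day 21, and 49 to 54 of them fell under each alternative.

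The RNA-binding protein genes Igf2bp1, Igf2bp2 and Igf2bp3 fell by 1.51, 1.31 and 1.53 on the log2 scale, beside the falls of Lin28b and Hmga2. Among retinoid genes the synthesis enzymes Aldh1a1 (4.23) and Aldh1a2 (2.49) and the retinol receptor Stra6 (2.08) rose, while the binding proteins Crabp1 (−3.49) and Crabp2 (−1.51) and the degrading enzyme Cyp26a1 (−2.97) fell. Aldh1a3 (0.33) and Cyp26b1 (0.24) did not pass. The class I gene H2-T23 rose by 1.10, and H2-K1 (0.04) and H2-D1 (0.35) did not pass.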
